A study of Homo sapiens with 8 samples.

Results

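The nuclear genes of the mitochondrial respiratory chain were followed in Ago2-RIP-Chip data of ST486, a B cell line grown from a Burkitt lymphoma (BL). A gene was a member if its current or an older symbol begins with NDUFA, NDUFB, NDUFC, NDUFS, NDUFV, SDHA, SDHB, SDHC, SDHD, UQCR, CYC1, COX4, COX5, COX6, COX7, COX8 or ATP5. The arrays held 142 such probes of 103 genes, out of 41000 probes, and 16557 genes could be named in all. By role they fell into 85 genes for subunits of complexes I to V, 12 for assembly factors and related proteins, the complex V inhibitor ATP5IF1, 3 transcribed pseudogenes of SDHA, and CCNI and EMC8, which only share an older name (CYC1 and COX4NB) with the chain. CCNI encodes a cyclin and EMC8 a subunit of a complex in the endoplasmic reticulum.

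All ST486 cells had been transduced with the retroviral MXW-PGK-IRES-GFP vector. The paper reports sorting of GFP+ cells for its check of miR-155 overexpression, and does not state it for the immunoprecipitation. The vector was empty in EV-ST486 (below, EV cells) and carried miR-155 with its genomic flanks in miR-155-ST486 (miR-155 cells), so that miR-155 was ectopic and the model is 1 cell line. Total (T) RNA came from the cell lysate, and immunoprecipitated (IP) RNA from what an antibody against Ago2 brought down. Both dyes, Cy3 and Cy5, were used for each of the 4 RNA samples, and every one of the 4 arrays held IP RNA in one dye and total RNA from the same vector in the other. The labellings are technical repeats, so that n = 1 per condition, no test was possible, and 2 values given for a ratio are those with the IP RNA in Cy3 and in Cy5, in that order. Arrays of EV and of miR-155 lay on different slides, and slide and vector cannot be told apart. Between 14094 and 22161 probes were detected per channel, meaning that the scanner software flagged them as well above background and as significantly positive. Signals are linear values after quantile normalization over the 8 channels. The IP/T ratio divides the IP by the total signal, and the miR-155/EV ratio divides the IP/T ratio of miR-155 cells by that of EV cells. B cell identity was checked on 9 B cell and BL markers, of which 8, CD79A and MS4A1 among them, were detected in all 4 total channels and PAX5 in none. The T cell markers CD2, CD3D, CD3E and CD3G and the fibroblast marker COL1A2 were not detected in the total channels, and of the myeloid markers CD14, CSF1R, ITGAM and LYZ only CD14 was. Of the Hodgkin lymphoma markers CCL17 was not detected, while TNFRSF8 was in 1 of the EV total channels (mean signal 137) and in both of miR-155 (234). The probe of MIR155HG, the host transcript of miR-155, was detected in neither EV total channel and in both miR-155 total channels. It does not measure the mature miRNA.

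The respiratory chain oxidizes NADH and succinate in the inner mitochondrial membrane and passes the electrons to oxygen, and the proton gradient built on the way drives ATP synthesis. Complex I takes electrons from NADH, complex II from succinate, complex III hands them from ubiquinol to cytochrome c, complex IV reduces oxygen, and complex V is the ATP synthase. Apart from a small set of subunits encoded by mitochondrial DNA, the subunits are made from nuclear genes whose mRNAs are translated in the cytosol, where Ago2 guided by a miRNA can bind them. Proliferating B cells need the chain for ATP and for the synthesis of nucleotides.

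The miRNA that was introduced pairs with its targets mainly through bases 2 to 8, the seed, which is set in capitals in the RefSeq sequence of the mature strand (GRCh38.p14, chr21:25573983-25574006, + strand). The sequence is shown because it defines what was added to the cells. Target sites in the members were not searched.
hsa-miR-155-5p: uUAAUGCUaaucgugauagggguu

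Nearly all members were expressed. Of the 142 member probes, 130 (91.5%) were detected in all 8 channels, against 31.0% of all probes on the arrays. The filters of the study, detection in at least 4 of the 8 channels and at most a 2-fold difference between the labellings of every sample, kept 131 member probes of 95 genes. Detection removed 5 probes, all of complex IV, and the labelling difference removed 6, one each of NDUFA10, SDHC, CYC1, COX6A2, ATP5MC3 and NDUFAF6. Over the 8 genes that lost every probe (COX4I2, COX6A2, COX7A1, COX7B2, COXFA4L2, CYC1, NDUFAF6 and SDHC), values are given below for description only. Of the kept member probes, 103 lay in the top quartile of signal of all kept probes.

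Total RNA of the chain differed little between the vectors. The median ratio of total signals, miR-155 over EV, was 0.98 over the kept member probes and 1.01 over all 15529 kept probes, and on the log2 scale the ratios had an SD of 0.23 and 0.36, respectively. Within 1.5-fold lay 129 member probes (98.5%), against 90.5% of all kept probes. Cytosolic ribosomal protein genes had a median ratio of 0.995 and an SD of 0.20, and proteasome subunit genes 1.21 and 0.22. In these 2 groups 0 kept probes reached 2-fold or 0.5, so small differences were not particular to the chain. Just 1 member probe, that of UQCRC2, reached 2-fold, where 0.676% of all kept probes did, and 0 reached 0.5, against 0.380% of all. Next to UQCRC2 the largest difference was 1.52-fold, for a probe of NDUFS1, an iron-sulfur subunit of complex I. Since the samples are bulk RNA, fewer cells of a type and less RNA per cell cannot be told apart.
UQCRC2, a core subunit of complex III, had signals of 6307 (Cy3) and 3642 (Cy5) in the EV total sample, 4558 and 6708 in the EV IP sample, 8573 and 11454 in the miR-155 total sample and 6419 and 7470.0 in the miR-155 IP sample. The EV total value in Cy5 stood below the other total values. The ratio of total signals was accordingly 1.36 in Cy3 and 3.15 in Cy5, so that the mean of 2.07 rested on 1 labelling.

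Ago2 enrichment was uncommon among the members. In EV cells 3 of 131 member probes (2.29%) had at least 2 times as much IP as total signal, the threshold of the study, against 12.1% of all kept probes. They belonged to NDUFC1 and, with 2 probes, to NDUFV3. In miR-155 cells the same probes and those of COX5B and NDUFB3 reached the threshold, 5 probes (3.82%) against 12.2% of all. An IP/T ratio of at most 0.5 was found for 10 member probes (7.63%) in EV cells, where 10.0% of all kept probes had one, and for 6 (4.58%) in miR-155 cells, against 9.83% of all. In EV cells these were probes of ATP5F1B, ATP5F1C, ATP5MG, COX4I1, NDUFB11, SDHA, SDHAP1 (both probes), SDHAP4 and DMAC2, and in miR-155 cells probes of ATP5F1C, COX4I1, NDUFA13, NDUFB11, SDHAP4 and DMAC2. These counts depended on the background model. With normexp, loess and Aquantile 1 probe was at or above 2 and 1 at or below 0.5 in EV cells. The share of all kept probes in this setting is not given here, so these counts do not place the members against it. Past 2-fold in each of the 7 other ways of background correction and normalization were, among the members named by the rule, NDUFC1 and COX4I1 probe 2 in both vectors and COX5B in miR-155 cells. The members lay closer together than all kept probes. The SD of their log2 IP/T ratios was 0.58 in EV cells and 0.60 in miR-155 cells, and over all kept probes 0.96 in both. It was 0.57 and 0.58 for proteasome subunit genes and 0.71 and 0.85 for cytosolic ribosomal protein genes. A narrow spread was thus not particular to the members.
The centre of the members was close to that of all probes. Their median IP/T ratio was 0.88 in EV cells (0.86 and 0.90 in the dye orientations) and 0.84 in miR-155 cells (0.85 and 0.84). Over all kept probes the medians were 0.90 and 0.88. Below 1 were 67.2% of the member probes in EV cells and 69.5% in miR-155 cells, against 58.2% and 59.4% of all kept probes. Cytosolic ribosomal protein genes, which are also abundantly expressed, had lower medians of 0.71 and 0.63 over 186 probes, and proteasome subunit genes 0.73 and 0.70 over 49 probes. In EV cells and miR-155 cells, 3.76% and 7.53% of the ribosomal probes and 2.04% and 4.08% of the proteasome probes were at least 2. At most 0.5 were 17.7% and 23.1% of the former and 10.2% and 12.2% of the latter. A low share of enriched probes was thus not particular to the respiratory chain. These differences between gene groups were not tested.

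**Figure D1:**
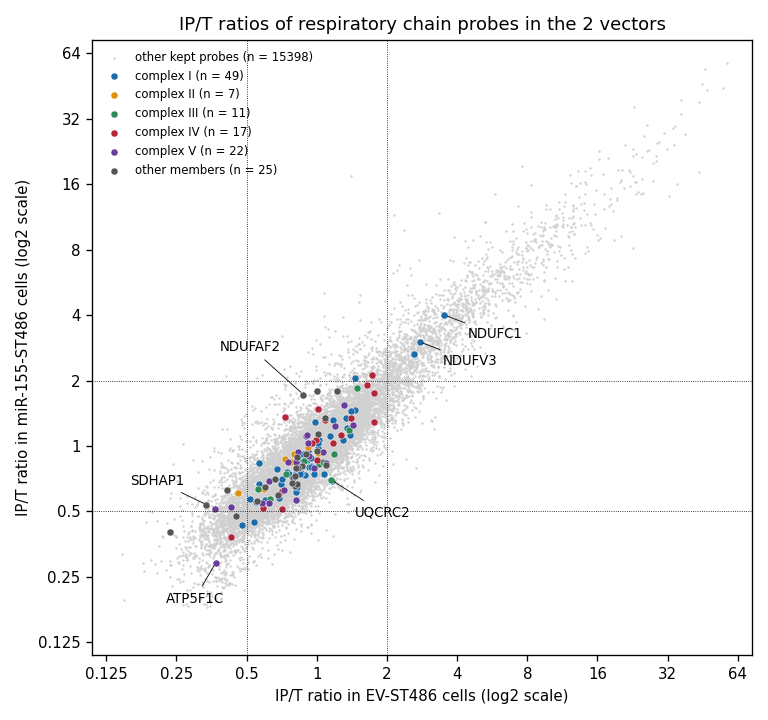
IP/T ratio in EV cells (x axis) and miR-155 cells (y axis), both on a log2 scale, for the 131 kept member probes, coloured by complex, over the other kept probes in grey; dotted lines mark ratios of 0.5 and 2. Most members lie between the lines in both vectors, with NDUFC1 and 2 probes of NDUFV3 above 2 and ATP5F1C below 0.5 in both; the leftmost member is probe 2 of DMAC2, whose EV IP signal was not detected.

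Signal level differed between the members and all kept probes, since most members lay in that top quartile. Within it 3 of 103 members (2.91%) met that threshold in EV cells, against 11.0% of all its probes, and in miR-155 cells 5 (4.85%) of the members, against 484 of all 3882 probes. In the 18 members in the quartile next below the median IP/T ratio in EV cells was 0.62, against 0.89 over all its probes. At most 0.5 were 6 of these 18 (33.3%) in EV cells, against 9.89% of all its probes, and 2 (11.1%) in miR-155 cells, against 9.79%. In the top quartile 3 members (2.91%) were at most 0.5 in each vector, against 9.43% of all its probes in EV cells and 11.9% in miR-155 cells.

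**Figure D2:**
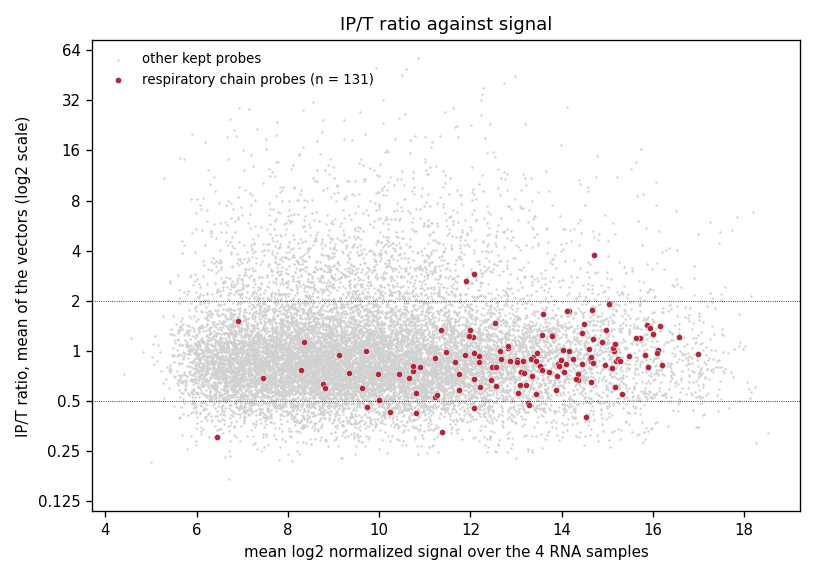
IP/T ratio as the mean of both vectors (y axis, log2 scale) against the mean log2 normalized signal over the 4 RNA samples (x axis), for member probes in red and other kept probes in grey; dotted lines mark ratios of 0.5 and 2. The members are mostly bright, and few of them lie above 2.

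Complex I, with 49 kept probes of 37 genes, held the members with the highest IP/T ratios. Its median IP/T ratio was 0.91 in EV cells and 0.81 in miR-155 cells. NDUFC1 (NM_002494), a small accessory subunit of the membrane arm, stood highest. Its signals were 13061 (Cy3) and 15170.1 (Cy5) in the EV total sample, 47672 and 51588 in the EV IP sample, 12281 and 14736 in the miR-155 total sample and 55698 and 52075 in the miR-155 IP sample. Every IP value was higher than every total value. The IP/T ratio was 3.52 in EV cells (3.14 and 3.95) and 4.00 in miR-155 cells (3.78 and 4.24), and it remained above 2 in the 7 other ways of background correction and normalization that were run.
NDUFV3 (NM_021075), an accessory subunit of the NADH-oxidizing module, followed with 2 of its 3 probes. Probe 3 had signals of 2632 (Cy3) and 2758 (Cy5) in the EV total sample, 7331 and 7537 in the EV IP sample, 2263 and 2506 in the miR-155 total sample and 7066 and 7294 in the miR-155 IP sample. As for NDUFC1, the IP and total values did not overlap. Its IP/T ratios were 2.76 in EV and 3.01 in miR-155 cells, and those of probe 1 were 2.62 in EV and 2.64 in miR-155 cells. Probe 2, assigned to the same accession but much dimmer, had IP/T ratios of 0.98 in EV and 1.29 in miR-155 cells. With the normexp background correction the EV ratio of probe 3 was as low as 1.49.
NDUFB3, another membrane arm subunit, had IP/T ratios of 1.46 in EV and 2.06 in miR-155 cells, and its dye orientations in EV cells gave 1.09 and 1.96. NDUFA7, with 1.45 in EV and 1.47 in miR-155 cells, and NDUFB2, with 1.44 in miR-155 cells, were also above 1 in every orientation.
Several core subunits that carry the electrons lay on the other side. NDUFS1, NDUFS3, NDUFS7, NDUFS8 and NDUFV1 had IP/T ratios below 1 on all of their probes in both vectors, as most kept probes did, although with the IP RNA in Cy3 NDUFV1 had 1.08 in EV cells. The lowest of these was NDUFS3 with 0.55 in EV and 0.56 in miR-155 cells, and NDUFV2, above 1, had 1.14 in EV and 1.12 in miR-155 cells. The median of the 9 core probes was 0.84 in EV cells and 0.78 in miR-155 cells, against 0.94 and 0.82 of the 40 other probes of complex I. NDUFB11 was the lowest of the complex in EV cells with 0.48 (0.48 and 0.48) and had 0.43 in miR-155 cells, where NDUFA13, also known as GRIM-19, had 0.45.

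**Figure D3:**
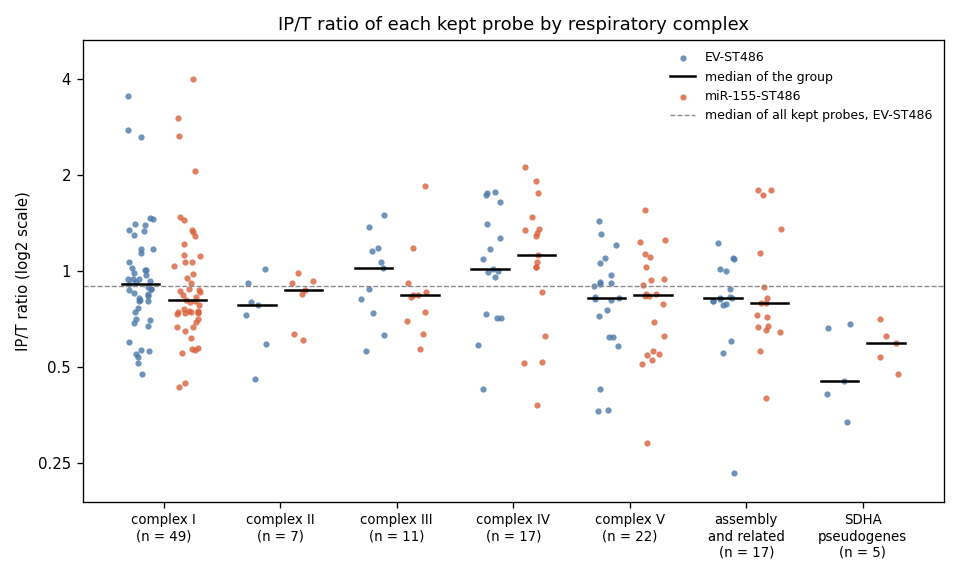
IP/T ratio (y axis, log2 scale) of every kept probe by complex or role, in EV cells (blue) and miR-155 cells (orange); bars are group medians and the dashed line is the median of all kept probes in EV cells. Complex I spans 0.48 to 3.52 in EV cells, and the 5 probes of the SDHA pseudogenes all lie below 1, as do most kept probes.

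Complex II, succinate dehydrogenase, which also serves the citric acid cycle, had no member above an IP/T ratio of 1.01 in EV cells. SDHA, the flavoprotein, had IP/T ratios of 0.46 in EV and 0.61 in miR-155 cells on probe 1 and of 0.73 in EV and 0.87 in miR-155 cells on probe 2. SDHB, the iron-sulfur protein, had 0.59 in EV and 0.64 in miR-155 cells. The 4 probes of SDHD, a membrane anchor, gave values between 0.78 and 1.01 in EV cells and between 0.85 and 0.99 in miR-155 cells. The other anchor, SDHC, was removed because its EV IP signal was 595 in Cy3 and 261 in Cy5.
Transcripts of the SDHA pseudogenes had low IP/T ratios in EV cells, at most 0.5 on 3 of 5 probes, against 10.0% of all kept probes. In miR-155 cells 1 of the 5 was at most 0.5, against 9.83% of all. On probe 1 SDHAP1 had signals of 2998 (Cy3) and 2938 (Cy5) in the EV total sample, 1335 and 746 in the EV IP sample, 2911 and 2241 in the miR-155 total sample and 1479 and 1272 in the miR-155 IP sample. The IP values were all below the total values. The IP/T ratios were 0.34 in EV and 0.54 in miR-155 cells, and on probe 2 they were 0.41 in EV and 0.63 in miR-155 cells. With normexp, loess and Aquantile the EV ratios of SDHAP1 were 0.80 and 0.82, no longer below 0.5. Over the 5 pseudogene probes the median was 0.45 in EV cells and 0.59 in miR-155 cells. Their sequence is close to that of SDHA, so that the signals of these probes and of the SDHA probes may include each other's transcripts.

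Complex III had 11 kept probes of 8 genes, and none of them reached an IP/T ratio of 2 or 0.5. UQCRB was the highest with 1.49 in EV and 1.85 in miR-155 cells, above 1 in every dye orientation. UQCRH, the hinge protein, had 1.37 in EV and 1.18 in miR-155 cells. The core proteins differed: UQCRC1 had 0.74 in EV and 0.75 in miR-155 cells, and UQCRC2 1.15 in EV and 0.70 in miR-155 cells. UQCRFS1, the Rieske iron-sulfur protein, had 1.18 in EV and 0.92 in miR-155 cells on probe 1 and 1.02 in EV and 0.83 in miR-155 cells on probe 2. Cytochrome c1, encoded by CYC1, was removed by the filter on labellings, since its EV IP signal was 6815 in Cy3 and 2159 in Cy5. Its IP values were nevertheless below its total values in all arrays, with IP/T ratios of 0.68 and 0.19 in EV cells and 0.54 and 0.40 in miR-155 cells.

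Complex IV, cytochrome c oxidase, showed opposite values among the subunits that are found in every cell. COX5A and COX5B, on the matrix side of the enzyme, lay above 1, and COX4I1, the largest nuclear subunit, below 0.5 on probe 2. COX5B had signals of 24622 (Cy3) and 23859.7 (Cy5) in the EV total sample, 43662 and 40123 in the EV IP sample, 25249.8 and 23136 in the miR-155 total sample and 53605 and 48616 in the miR-155 IP sample, and thus IP/T ratios of 1.73 in EV cells (1.83 and 1.63) and 2.11 in miR-155 cells (2.32 and 1.93). On its probe 2 COX5A had 1.65 in EV and 1.91 in miR-155 cells, while probe 1 had 1.01 in EV and 1.48 in miR-155 cells, with EV values of 0.66 and 1.56. For COX4I1 the signals of probe 2 were 36959.6 (Cy3) and 37899.8 (Cy5) in the EV total sample, 15963 and 15998 in the EV IP sample, 36819 and 36719 in the miR-155 total sample and 14296 and 13704 in the miR-155 IP sample. In these 8 values the labellings differed by at most 1.04-fold and the IP values were all lower than the total values, with IP/T ratios of 0.43 in EV and 0.38 in miR-155 cells. Probe 1 gave 0.59 in EV and 0.52 in miR-155 cells. The other subunits detected in all channels ranged from COX7A2 with 0.71 in EV and 0.52 in miR-155 cells to COX7A2L probe 1 with 1.75 in EV and 1.75 in miR-155 cells. COX7A2L is not an isoform of the oxidase itself but takes part in the assembly of supercomplexes. Over the 17 kept probes the median was 1.01 in EV cells and 1.12 in miR-155 cells.
Several subunits of this complex have isoforms that are known from particular tissues, and most of those were not detected. COX4I2 (lung), COX7A1 (heart and muscle) and COX7B2 (testis) were detected in 0 of the 8 channels and COXFA4L2, also known as NDUFA4L2, in 1. COX6B2 (testis) was detected in 6 channels on probe 1, with signals between 78.9 and 191, and in 1 channel on probe 2. The corresponding common forms COX4I1, COX6A1, COX6B1, COX7A2, COX7B and COXFA4 were detected in all 8 channels.
COX6A2, known as the heart and muscle form of COX6A, did not follow this pattern. Its probe was detected in all 8 channels, with signals of 23299.8 (Cy3) and 1857 (Cy5) in the EV total sample, 375 and 6969 in the EV IP sample, 21643 and 18646 in the miR-155 total sample and 3835 and 4058 in the miR-155 IP sample. Apart from EV Cy5, total signals were at least 18646, while the EV total value in Cy5 and the EV IP value in Cy3, which come from the same array, stood far below their counterparts. The largest difference between labellings was 18.6-fold, and the probe was removed for it. Within every array the IP signal was nevertheless well below the total signal, with IP/T ratios of 0.20 and 0.30 in EV cells and 0.21 and 0.19 in miR-155 cells. COX6A1, the common form, had an IP/T ratio of 1.34 in miR-155 cells and of 1.14 and 1.74 in the EV arrays. The total signal of COX6A2, miR-155 over EV, was 0.93 in Cy3 and 10.0 in Cy5. The low EV total value of UQCRC2 in Cy5 came from that array too. Which transcripts the COX6A2 probe binds was not tested.

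**Figure D4:**
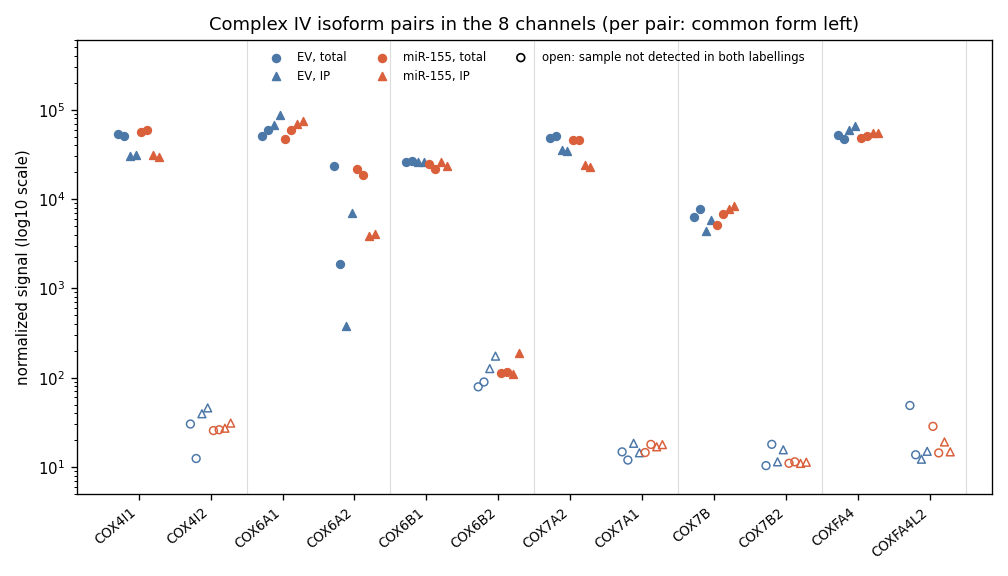
Normalized signal (y axis, log10 scale) in the 8 channels for complex IV genes, each common form followed by its tissue-restricted form; circles are total and triangles IP RNA, blue is EV cells and orange miR-155 cells, the left of each pair of symbols is Cy3, and open symbols mark samples not detected in both labellings. Levels of different probes are not comparable; the restricted forms are mostly undetected, except COX6A2, which was detected in all 8 channels and whose labellings spread over up to 18.6-fold in EV cells.

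In complex V the subunits of F1, which comprises the catalytic head and the central stalk, had lower ratios than the rest of the enzyme. They had a median IP/T ratio of 0.62 in EV cells and 0.56 in miR-155 cells over 7 probes. All 7 were below 1, as were 58.2% of all kept probes in EV cells and 59.4% in miR-155 cells. With normexp, loess and Aquantile 1 of the 7, ATP5F1D probe 1, had 1.12 in EV cells. The 15 probes of the membrane part and the peripheral stalk had medians of 0.92 and 0.94. The difference between these groups was not tested.
ATP5F1C (NM_005174), the gamma subunit at the axis of the rotor, had the lowest mean IP/T ratio among the kept probes that were detected in all 8 channels. It had signals of 4629.7 (Cy3) and 3879.5 (Cy5) in the EV total sample, 1553 and 1566 in the EV IP sample, 4867 and 5261 in the miR-155 total sample and 1494 and 1438 in the miR-155 IP sample. Total and IP values did not overlap. Its IP/T ratio was 0.37 in EV cells (0.40 and 0.34) and 0.29 in miR-155 cells (0.28 and 0.30). Over the ways of background correction and normalization these ratios reached 0.66 and 0.57, both with normexp, where COX4I1 probe 2 lay lower. The beta subunit ATP5F1B, which holds the catalytic sites, had 0.43 in EV and 0.53 in miR-155 cells, and the alpha subunit ATP5F1A 0.62 in EV and 0.69 in miR-155 cells.
The genes ATP5MC1, ATP5MC2 and ATP5MC3 encode the same mature c subunit of the proton-driven ring, with different import sequences, and their IP/T ratios differed. ATP5MC1 had 0.58 in EV and 0.55 in miR-155 cells, below 1 in every orientation. ATP5MC2 had 1.31 in EV and 1.55 in miR-155 cells, above 1 in every orientation. For ATP5MC3 the kept probe had 0.83 in miR-155 cells, and its EV values of 0.95 and 1.28 lay on both sides of 1. ATP5PD was the highest of the complex in EV cells with 1.43. The inhibitor ATP5IF1, which keeps the enzyme from hydrolysing ATP, had 1.00 in EV and 0.95 in miR-155 cells.

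Assembly factors had IP/T ratios near those of the subunits, with medians of 0.82 in EV cells and 0.79 in miR-155 cells over 17 probes of 11 genes. None reached 2 in either vector. NDUFAF1, NDUFAF4 and NDUFAF5, which serve complex I, had IP/T ratios of 0.82, 0.78 and 0.80 in EV cells, and the complex II factors SDHAF1, SDHAF2 and SDHAF3 0.82, 1.09 and 1.01. Below 1 in every array were the 3 probes of PYURF, with EV values from 0.55 to 0.83. The genes that share an older name only, CCNI and EMC8, had 0.90 and 0.87 in EV cells and 0.92 and 0.81 in miR-155 cells. NDUFAF6, a complex I assembly factor, was removed for the labelling difference in the EV total sample, 378 in Cy3 and 164 in Cy5, the latter not detected. Its IP signals were 984 and 1240.1 in the EV and 1495 and 1294 in the miR-155 sample, and its miR-155 total signals 387 and 422. In the arrays where both fractions were detected the IP/T ratio was above 2, at 3.28 in EV cells and 3.55 and 3.34 in miR-155 cells.

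Few members differed in IP/T between the vectors. The miR-155/EV ratio was at least 2 for 0 and at most 0.5 for 0 of the 131 kept member probes, where 1.15% and 0.477% of all kept probes reached these limits. The median was 0.99, against 0.98 over all kept probes, and the log2 ratios had an SD of 0.30 against 0.35. At a lower limit of 1.5-fold, 6 member probes (4.58%) were higher in miR-155 cells and 2 (1.53%) were higher in EV cells, against 4.37% and 4.38% of all kept probes.
The highest ratio belonged to NDUFAF2 (NM_174889), an assembly factor of complex I, which the arrays measured with 3 probes. Probe 1 had signals of 3919 (Cy3) and 4203 (Cy5) in the EV total sample, 4091 and 3095 in the EV IP sample, 3284 and 3112 in the miR-155 total sample and 5866 and 5179 in the miR-155 IP sample. In the miR-155 samples the IP values exceeded the total values, whereas in the EV samples they overlapped. The IP/T ratio was 0.88 in EV cells (0.97 and 0.79) and 1.72 in miR-155 cells (1.88 and 1.58), a miR-155/EV ratio of 1.97 (1.94 and 2.00). Probe 2 had IP/T ratios of 1.22 in EV and 1.79 in miR-155 cells and a miR-155/EV ratio of 1.47 (1.20 and 1.80). Probe 3 had 1.00 in EV and 1.80 in miR-155 cells, a miR-155/EV ratio of 1.80 (1.74 and 1.87). In each of the 3 probes the miR-155/EV ratio was above 1 in both orientations, but with normexp, loess and Aquantile the ratios were 1.35, 1.15 and 1.12 for probes 1, 2 and 3. The IP/T ratio in miR-155 cells remained below the threshold of 2 on all 3 probes.
COX7B, a small subunit of complex IV, followed. Its signals were 6227 (Cy3) and 7717 (Cy5) in the EV total sample, 4435 and 5826 in the EV IP sample, 5170.2 and 6714 in the miR-155 total sample and 7695 and 8253 in the miR-155 IP sample. The IP values were lower than the total values of the same labelling in EV cells and higher in miR-155 cells, which gave IP/T ratios of 0.73 in EV and 1.35 in miR-155 cells and put its miR-155/EV ratio at 1.84 (1.99 and 1.71). After normexp, loess and Aquantile that ratio was 1.12. The other members past 1.5 were the probes of SDHAP1 (1.45 and 1.76 on probe 1 in the dye orientations, 1.53 on probe 2) and probe 2 of DMAC2, whose EV IP signal was not detected, so that its ratio is no measured fold. With normexp, loess and Aquantile the SDHAP1 ratios were 0.87 and 1.01.
At the low end, NDUFC2, a membrane arm subunit of complex I, had signals of 21251 (Cy3) and 16948 (Cy5) in the EV total sample, 18513 and 26522 in the EV IP sample, 21236 and 23471 in the miR-155 total sample and 16184 and 14826 in the miR-155 IP sample on probe 1. Its IP values in miR-155 cells were the lowest of the 8. The IP/T ratios were 1.17 in EV and 0.69 in miR-155 cells, a miR-155/EV ratio of 0.59 (0.63 and 0.56), and over the other ways of background correction and normalization this ratio did not exceed the value given. Probe 2, detected in 7 of the 8 channels, had a miR-155/EV ratio of 0.91 (1.02 and 0.82). UQCRC2 had a ratio of 0.61 (0.45 and 0.82), which shares the low EV total value in Cy5 described above. ATP5F1D, the delta subunit of F1, had 0.69 (0.60 and 0.81) on probe 1 and 0.87 on probe 2.

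**Figure D5:**
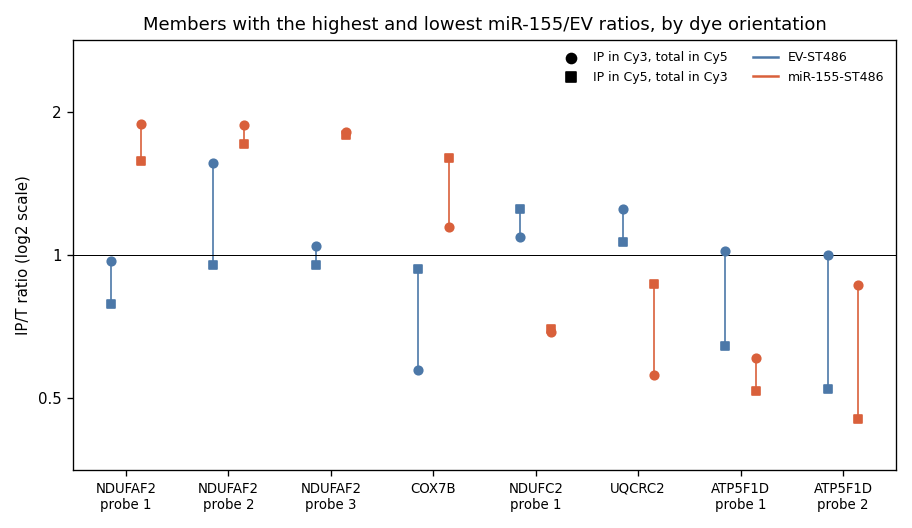
IP/T ratio (y axis, log2 scale) of members with the highest and lowest miR-155/EV ratios, in EV cells (blue) and miR-155 cells (orange); circles are arrays with the IP RNA in Cy3 and squares those with the IP RNA in Cy5, joined by a line. In the 3 NDUFAF2 probes and COX7B both values of miR-155 cells lie above both values of EV cells, and in NDUFC2 probe 1 and UQCRC2 below.

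Probes of the same gene mostly gave like values. Of 31 genes with more than 1 kept probe, 3 had probes that differed by more than 2-fold in IP/T in a vector, namely NDUFV3, described above, ATP5MG and DMAC2. ATP5MG, the g subunit of complex V, had IP/T ratios of 1.20 in EV and 1.23 in miR-155 cells on probe 1 and of 0.37 in EV and 0.51 in miR-155 cells on probe 2, although both probes are assigned to NM_006476. DMAC2, needed for the membrane arm of complex I, had 0.79 in EV and 0.72 in miR-155 cells on probe 1. Its probe 2 was detected in both labellings of the EV total and in none of the EV IP sample, so that neither an EV IP/T ratio nor a miR-155/EV ratio of it was measured, although the probe stands in the counts above. With normexp, loess and Aquantile none of the 3 genes had probes more than 2-fold apart in EV cells, and the probes of ATP5MG then had 1.29 and 0.84.

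Other genes that serve the chain were read in the same way, from lists that were not part of the rule. Of 41 genes for further assembly factors and for cytochrome c, 36 were kept with 48 probes, and their median IP/T ratios were 0.83 and 0.87 in EV cells and miR-155 cells. In EV cells 2 of these probes (4.17%) were at least 2 and 5 (10.4%) at most 0.5, against 12.1% and 10.0% of all kept probes, so that the share of low ratios was near that of all. COA5 had 2.53 and 2.79, and COX17, the copper chaperone of complex IV, 2.03 and 2.07. Both probes of COA3, which takes part in making the mitochondrially encoded COX1, were below 0.5, with 0.46 and 0.44 in EV cells.
The citric acid cycle, which feeds the chain, had the lowest medians of these lists, 0.62 and 0.62 over 15 probes. In EV cells 4 (26.7%) were at most 0.5 and 0 at least 2, against 10.0% and 12.1% of all kept probes. In miR-155 cells 2 (13.3%) were at most 0.5 and 0 at least 2, against 9.83% and 12.2% of all. A probe of OGDH, a subunit of the 2-oxoglutarate dehydrogenase complex, had of these lists the highest miR-155/EV ratio, 2.19 (2.37 and 2.03). Its EV IP signal was detected in 1 dye only, and with an EV IP/T ratio of 0.46 it is among the probes at most 0.5. The other OGDH probe, detected in both dyes, had a miR-155/EV ratio of 1.07 (0.92 and 1.26). Coenzyme Q synthesis had medians of 0.88 and 0.94 over 10 probes, none of them at least 2 or at most 0.5 in EV cells. Among 16 probes for mitochondrial transcription and biogenesis the medians were 0.82 and 0.73, and ESRRA, a nuclear receptor that drives genes of the chain, had IP/T ratios of 5.30 and 4.77, above any kept member.

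The members are also known as targets of shared transcription factors, and their promoters were read for this. RefSeq promoter windows (GRCh38.p14), from 250 bases before to 50 bases after the start site, were at hand for 70 subunit genes of complexes I to V. On both strands the NRF1 core CGCATGCG, which reads the same on either strand, was found in 10 of 70 (14.3%) of them, against 2.88% of 15843 promoters of protein-coding genes and 4.48% of those with a kept probe. The ETS core CCGGAAG was found in 20 of 70 (28.6%), against 14.2% and 21.7%, and the YY1 core AAGATGGC in 11 of 70 (15.7%), against 3.91% and 6.29%. Any of the 3 was found in 34 of 70 (48.6%), against 19.3% of all, 29.5% of those with a kept probe and 43.5% of ribosomal protein genes. In the same windows of ribosomal protein genes the shares were 1.45%, 33.3% and 10.1%. A match is a description of the letters and no evidence of binding. The following stretches of 60 bases, all upstream of the start site and written 5′ to 3′ on the strand of the gene, show the NRF1 core in capitals for a member each of complexes I, II and V, and the ETS core for COX5B of complex IV and UQCRQ of complex III.
NDUFS7, chr19:1383807-1383866 (+ strand): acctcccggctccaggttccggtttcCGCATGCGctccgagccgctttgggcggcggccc
SDHD, chr11:112086738-112086797 (+ strand): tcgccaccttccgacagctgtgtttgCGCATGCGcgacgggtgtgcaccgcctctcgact
ATP5F1C, chr10:7788117-7788176 (+ strand): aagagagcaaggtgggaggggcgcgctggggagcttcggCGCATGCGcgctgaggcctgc
COX5B, chr2:97645999-97646058 (+ strand): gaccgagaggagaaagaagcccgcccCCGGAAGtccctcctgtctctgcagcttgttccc
UQCRQ, chr5:132866562-132866621 (+ strand): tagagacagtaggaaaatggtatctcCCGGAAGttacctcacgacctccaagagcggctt
These genes had different IP/T ratios in EV cells, 0.85 and 0.69 for the probes of NDUFS7, 0.37 for ATP5F1C, between 0.78 and 1.01 for SDHD, 1.73 for COX5B and 1.07 for UQCRQ, while their total signals, miR-155 over EV, lay between 0.84 and 1.41.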

How the data were processed

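Total and Ago2-IP RNA of EV cells and miR-155 cells had been hybridized to Agilent 44k arrays. The authors deposited intensity values, which Agilent Feature Extraction 10.5.1.1 (per the labels) had background-subtracted and dye-normalized, and log2 values made by quantile normalization and filtering in GeneSpring. Here control spots were dropped, replicate spots were averaged, a floor of 1 was set before log2 was taken, and the 8 channels were brought to one distribution by quantile normalization. Kept were probes that 4 or more channels detected and whose labellings differed by no more than 2-fold in any sample (15529 of 41000), and labellings were averaged. Of the deposited log2 values, 99.9% lay within 0.05 of these. Symbols came from RefSeq (GRCh38.p14) through the accession of a probe, for 23958 probes. Probes of a gene were numbered by probe name.

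With n = 1 per condition, no p-value is given, and the 2 labellings of each RNA sample do not measure the variation between samples. The members, the gene lists and the rule for the genes named were chosen with earlier results of these data known. Named are core and leading subunits of each complex, isoform groups, the 5 highest and 5 lowest members by mean IP/T, the 3 highest and 3 lowest by miR-155/EV, genes whose probes disagree and genes whose total signal differed by more than 2-fold. Other genes were named after their values were seen. The ratio computation was tested on simulated data. The alternatives are given in the closing section. Normexp was run with limma 3.58.1 in R 4.3.3. All else was computed in Python 3.11.15 with pandas 2.3.3, numpy 2.4.6 and, for figures, matplotlib 3.10.9.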

Additional observations from a re-analysis of the deposited data

Results flagged for a closer look

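In 8 of the 131 kept member probes (6.11%) the IP/T ratio lay on one side of 1 in both dye orientations of EV cells and on the other side in both of miR-155 cells, against 3.23% of all kept probes. They are the probes of ATP5MF and ATP5MJ, with miR-155/EV ratios from 1.12 to 1.24, and 5 described above, and the difference between the vectors was not tested in any. The miR-155/EV ratio was 1.97 for NDUFAF2 probe 1 and 1.84 for COX7B, with IP/T ratios below 1 in EV cells and above 1 in miR-155 cells. It was 0.59 for NDUFC2 probe 1, 0.61 for UQCRC2 and 0.81 for UQCRFS1 probe 2, with IP/T ratios above 1 in EV cells and below 1 in miR-155 cells. For UQCRFS1 probe 2 the EV ratios were 1.01 and 1.03, close to 1.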

How the results depend on the processing

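The median IP/T ratio over members in EV cells, 0.88, was 0.92 without quantile normalization, 0.91 after scaling to the 75th percentile, 0.91 with normexp (offset 50) and quantile normalization, 0.93 with normexp, loess and Aquantile, and 0.85 and 0.90 in these settings with local backgrounds above 500 set to the median of their channel, which were added after seeing the data. In miR-155 cells, in the same order, 0.84 became 0.86, 0.85, 0.90, 0.90, 0.85 and 0.90. For the miR-155/EV ratio the median of 0.99 became 0.98, 0.96, 1.02, 0.98, 1.02 and 1.02, and the median total ratio, 0.98, was 1.29, 0.95, 0.94, 0.96, 0.92 and 0.90. Without quantile normalization the total ratio of all kept probes was likewise 1.36. Subunits of complexes I to V alone, also added later, had medians of 0.91 and 0.85 in EV cells and miR-155 cells, and 6 of their probes were at most 0.5 in EV cells. With genes in place of probes the median was 0.83 in miR-155 cells, the median total ratio 0.97, and 5 genes were at most 0.5 in EV cells.

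The counts moved with the background model. The 3 probes past the 2-fold IP/T threshold in EV cells became 1 with normexp and quantile normalization, 1 with normexp, loess and Aquantile and 5 with normexp, quantile normalization and backgrounds replaced, and the 5 in miR-155 cells became 3 with normexp and quantile normalization. The 10 probes at most 0.5 in EV cells became 2, 1 and, with loess and backgrounds replaced, 3, and the 6 in miR-155 cells 2, 2 and 2. At a threshold of 1.5 the counts at or above it were 7 in EV cells and 12 in miR-155 cells, those at or below its inverse 26 and 31, and those of the miR-155/EV ratio 6 and 2. At a threshold of 3 they were 1, 2, 1 and 1 for IP/T. For IP/T, counts of all kept probes are not given for these settings and thresholds, so the members are not placed against them here. Without the filter on labellings 1 probe, that of SDHC, reached a miR-155/EV ratio of 2.

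With one dye orientation at a time, the median IP/T ratio was between 0.86 and 0.90 in EV cells and between 0.84 and 0.85 in miR-155 cells, the median miR-155/EV ratio between 0.98 and 1.01 and the median total ratio between 0.96 and 0.97. Member counts of at least 2 were between 3 and 4 and between 4 and 6. Over all 15529 kept probes they were between 1942 and 2091 and between 1863 and 2060. Member counts of at most 0.5 were between 11 and 13 and between 6 and 11. Over all kept probes these were between 1480 and 2285 and between 1373 and 2085. The miR-155/EV counts of members, at least 2 and at most 0.5, were between 0 and 1 and between 0 and 2. Those of all kept probes are not given for a single orientation, so the members are not placed against them here. The higher member counts of the miR-155/EV ratio were probe 2 of DMAC2, with the IP RNA in Cy5, and UQCRC2 and SDHAF4, with the IP RNA in Cy3. The 11 probes with an IP/T ratio of at most 0.5 in miR-155 cells were counted with the IP RNA in Cy5. Of 174 ratios of named members none that was past 2-fold changed direction over 7 other ways of background correction and normalization, but 13 of 18 were inside 2-fold in at least 1 of them. The causes were not tested. No paired analysis was possible because each condition has 1 RNA sample and the result comes from no test. Dim probes, such as those of COX6B2 and probe 2 of DMAC2, lie near background, where the ratios depend most on its correction.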
